A study of Mus musculus with 4 samples.

Results

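The nuclear-encoded subunits of the oxidative phosphorylation complexes were compared between livers of IlrunKO mice and wild-type (WT) mice. The list held 59 genes: 23 of complex I, 4 of complex II, 7 of complex III, 11 of complex IV and 14 of complex V. Members were found by name, from the probes whose gene name or accession gave a member or its current symbol. Of the 59 genes, 58 had at least 1 probe and 56 gave a tested ratio, out of 19655 genes tested on the array. The study hybridised RNA from 4 livers of IlrunKO mice and 4 livers of WT mice on 4 two-colour Agilent arrays, each array holding 1 liver of each genotype. The knockout was global, and the mice of both genotypes were male C57BL/6 on a chow diet whose livers were collected after a 4 h fast. IlrunKO RNA carried the dye Cy5 on arrays 1 and 2 and the dye Cy3 on arrays 3 and 4. Neither the deleted part of Ilrun nor the age of the mice is given in the sources used here, and the labels call the livers biological replicates without saying whether any was pooled.

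The oxidative phosphorylation system sits in the inner mitochondrial membrane. Complexes I and II pass electrons from NADH and succinate to ubiquinone, complex III passes them on to cytochrome c, and complex IV passes them to oxygen. Complexes I, III and IV pump protons, and complex V, the ATP synthase, uses the proton gradient to make ATP. Most subunits are encoded in the nucleus and imported, while a small core set is encoded in mitochondrial DNA. In liver this machinery reoxidises the NADH and FADH2 of fatty acid oxidation and supplies the ATP for glucose and urea synthesis, and a fast raises the load of fatty acid oxidation.

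As a check of the labels, the log2 ratio of IlrunKO over WT at the brighter probe of Ilrun was -4.12, -4.11, -4.04 and -4.56 on arrays 1 to 4. At a dimmer probe, above background in 1 of 4 IlrunKO livers, it was -2.03, -2.18, -1.78 and -2.59. All 12 hepatocyte markers on the list were above background in all 8 liver samples. Each liver sample had 60.0% to 67.3% of its probes well above background, and no spot was saturated. The 4 arrays lay on a single slide and were read in a single scan, so slide and scan did not separate the groups. In whole liver, fewer cells of a type and less RNA per cell cannot be told apart.

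None of the tested nuclear-encoded subunits passed the test. In limma's fit over all genes, 0 of the 56 members had an adjusted p under 0.05 (Benjamini-Hochberg over 19655 genes), against 1.37% of all genes, which is 270 genes (0.717% higher and 0.656% lower). At an unadjusted p under 0.05 there were 10 members, 6 higher and 4 lower in IlrunKO, or 17.9% of members against 20.5% of all genes. The lowest adjusted p of a member was 0.0906, for Ndufb3. Every alternative processing run on these arrays also called 0 members. Median centring and leaving out array 3 or array 4 each called only 1 gene of all tested, so those runs could hardly call a member.

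The fitted ratios were small and lay on both sides of 0. They ran from -0.18 for Uqcrq to 0.27 for Ndufb3 on the log2 scale, with a median of 0.016 against -0.0014 for all genes. Of the 56 members 34 were above 0, where 49.4% of all genes were, but only 4 were above 0 when each array was centred on its median in place of the loess curve. That centring put the member median at -0.14 and the median of all genes at -0.050, with the mitochondrial ribosomal proteins at -0.11 and the cytosolic ribosomal proteins at -0.16. The direction of the list as a whole therefore rested on the normalization. Leaving out array 1 also turned the sign of the member median, to -0.016.

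Within the reported fit, the precision of the ratios bounds how large a difference could have been. The median standard error of a member was 0.054 on the log2 scale, and its 95% interval reached 0.14 to either side. For all 56 members the 95% interval lay within 0.5 of 0, which is a 1.41-fold difference, as it did for 89.8% of all genes. The lowest bound was -0.33, for Uqcrq, and the highest was 0.41, for Atp5g3. These intervals are not adjusted for the number of genes and leave smaller differences undecided. They were computed after loess normalization with a dye orientation term in the fit, and apply to that processing alone. The term takes out the difference between arrays 1 and 2 and arrays 3 and 4, so this difference does not widen them. Cox6a1, with an SD of 0.52 over its 4 arrays, had a standard error of 0.072.

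**Figure D1:**
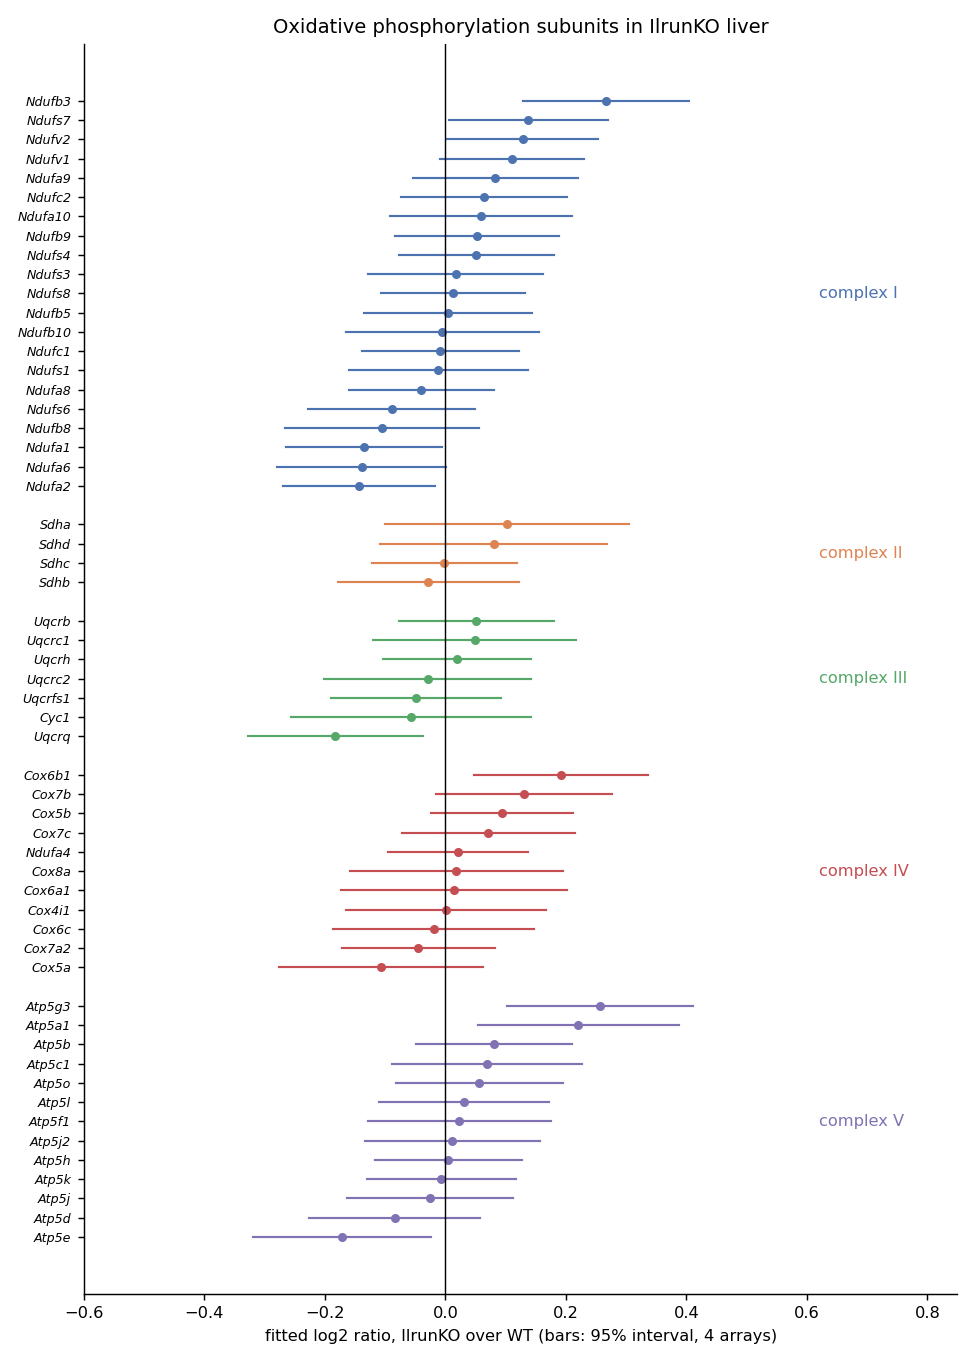
Fitted log2 ratio of IlrunKO over WT (horizontal axis) for each of the 56 tested subunits, grouped by complex, with bars for the 95% interval over 4 arrays. The points lie between -0.18 and 0.27, and no bar reaches 0.5 on either side of 0.

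The promoters of 6 subunits, at least 1 from each complex, are shown because nuclear-encoded subunits share binding motifs for NRF1, for ETS factors such as GABPA and for YY1, regulators long tied to respiratory genes, and because the ratios of these 6 carry the patterns described further on. RefSeq promoter windows on build GRCm38.p6, reaching from 250 bases before to 50 bases after the start, matched 48 of the 59 members. Each line gives the bases before the start on the gene's own strand, 5′ to 3′, cut where a neighbouring gene begins. Capitals mark matches, on either strand, to the NRF1 consensus palindrome, CCGGAAG (ETS), TCAAGGTCA (estrogen-related receptors) and CCAAT (the CCAAT box). No matches overlapped in the printed stretches, which held no match to the YY1 motif AAGATGGCG.
Ndufb3: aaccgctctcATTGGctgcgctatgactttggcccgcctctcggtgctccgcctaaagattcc
Sdhd: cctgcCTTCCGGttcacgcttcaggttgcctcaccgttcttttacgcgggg
Uqcrh: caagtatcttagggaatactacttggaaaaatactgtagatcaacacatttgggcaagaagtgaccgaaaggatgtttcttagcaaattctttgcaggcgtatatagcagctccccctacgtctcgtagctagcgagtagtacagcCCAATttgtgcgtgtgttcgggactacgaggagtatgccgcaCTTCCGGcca
Cox6a1: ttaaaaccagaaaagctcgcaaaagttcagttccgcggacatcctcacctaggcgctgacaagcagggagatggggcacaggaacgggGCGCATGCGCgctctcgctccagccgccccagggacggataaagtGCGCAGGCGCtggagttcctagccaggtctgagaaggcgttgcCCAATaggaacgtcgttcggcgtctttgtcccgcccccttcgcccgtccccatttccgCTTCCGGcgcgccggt
Cox6b1: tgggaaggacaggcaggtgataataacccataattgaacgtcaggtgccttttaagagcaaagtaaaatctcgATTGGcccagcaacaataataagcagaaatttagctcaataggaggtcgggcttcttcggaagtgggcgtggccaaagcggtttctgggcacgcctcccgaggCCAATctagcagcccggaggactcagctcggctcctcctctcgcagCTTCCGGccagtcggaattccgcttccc
Atp5b: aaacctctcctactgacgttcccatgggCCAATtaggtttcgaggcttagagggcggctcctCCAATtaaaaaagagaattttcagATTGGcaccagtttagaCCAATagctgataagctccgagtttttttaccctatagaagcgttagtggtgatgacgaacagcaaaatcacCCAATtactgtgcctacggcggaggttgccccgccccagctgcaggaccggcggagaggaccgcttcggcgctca

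These stretches lie at chr1:58586334-58586396 (plus strand), chr9:50603850-50603900 (minus), chr4:116075071-116075268 (minus), chr5:115348959-115349208 (minus), chr7:30626115-30626364 (minus) and chr10:128083057-128083306 (plus). Ndufb3, Sdhd and Uqcrh start close to the starts of Fam126b, Timm8b and Lrrc41, which leave 63, 51 and 198 bases between them. The Cox6a1 promoter held 2 NRF1 matches, starting 162 and 117 bases before the start, and an ETS match 16 bases before it. Uqcrh, Sdhd and Cox6b1 each held an ETS match, 10, 46 and 28 bases before the start. Atp5b held 5 CCAAT boxes and none of the other motifs, and Ndufb3 held 1 CCAAT box.

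Over the whole window the NRF1 motif was found at 13 of 48 members (27.1%), against 5.19% of 27025 genes with a promoter listed. The ETS motif was at 13 members (27.1%) against 9.93% of genes, and the YY1 motif at 7 members (14.6%) against 1.64%. The estrogen-related receptor motif was at 2 members (4.17%), Atp5g3 and Sdhd, against 0.466% of genes. TATAAA was at 2 members (4.17%) against 15.7%, and CCAAT at 20 members (41.7%) against 41.1%. The median GC content of the window was 57.8% for members and 52.7% for all genes, and these shares are descriptions of the letters, without a test.

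Complex I takes electrons from NADH. Its 21 tested subunits had a median ratio of 0.012, with 12 above 0 and 9 below. Of these 21, 5 (23.8%) reached an unadjusted limma p under 0.05, as did 20.5% of all genes. Ndufb3, an accessory subunit of the membrane arm, had ratios of 0.22, 0.050, 0.43 and 0.37 on arrays 1 to 4, a fitted ratio of 0.27 ± 0.053 (SE, n = 4 arrays) and limma adjusted p = 0.0906. It was above 0 on every array, with the smallest value on array 2. Ndufs7, a core iron-sulfur subunit at the end of the electron path to ubiquinone, had 0.27, 0.13, 0.10 and 0.051, a fitted ratio of 0.14 ± 0.051 (SE, n = 4) and limma adjusted p = 0.23. Ndufv2, a core subunit of the NADH-oxidising module, had 0.17, 0.22, 0.12 and 0.0087 (limma adjusted p = 0.236).

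On the other side of 0 in complex I were Ndufa1 and Ndufa2. Ndufa2, an accessory subunit of the peripheral arm, had -0.12, -0.048, -0.15 and -0.25 on arrays 1 to 4 and a fitted ratio of -0.14 ± 0.049 (SE, n = 4; limma adjusted p = 0.204). Ndufa1, a small membrane-arm subunit needed for assembly, had -0.069, -0.14, -0.23 and -0.10 and a fitted ratio of -0.13 ± 0.050 (SE, n = 4; limma adjusted p = 0.232). NADH-binding Ndufv1 was also above 0 on all 4 arrays, at 0.063 to 0.16, and Ndufa8 was below 0 on all 4, at -0.097 to -0.012.

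The other 14 tested complex I subunits lay closer to 0 or varied more between arrays: Ndufa6, Ndufa9, Ndufa10, Ndufb5, Ndufb8, Ndufb9, Ndufb10, Ndufc1, Ndufc2, Ndufs1, Ndufs3, Ndufs4, Ndufs6 and Ndufs8. Their fitted ratios ran from -0.14 for Ndufa6 to 0.083 for Ndufa9. Ndufa5 and Ndufa12 were not tested as genes, because the scanner software marked the brightest probe's spot as an outlier on 3 arrays for Ndufa5 and on 2 arrays for Ndufa12. With those marks ignored, an alternative chosen after seeing the data, Ndufa5 had a fitted ratio of 0.076 ± 0.068 (SE, n = 4; limma adjusted p = 0.597) and Ndufa12 one of 0.092 ± 0.069 (SE, n = 4; limma adjusted p = 0.519). A second Ndufa5 probe, measured on all 4 arrays, had 0.078, -0.070, 0.15 and 0.018 (fitted 0.044 ± 0.054 (SE, n = 4), limma adjusted p = 0.71 over probes).

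Complex II, succinate dehydrogenase, is also an enzyme of the citric acid cycle and is encoded by nuclear genes alone. Its flavoprotein subunit Sdha had ratios of 0.31, -0.060, 0.0083 and 0.15 on arrays 1 to 4 (fitted 0.10 ± 0.078 (SE, n = 4), limma adjusted p = 0.532). The membrane anchor Sdhd had -0.017, -0.37, 0.35 and 0.36 (fitted 0.080 ± 0.072 (SE, n = 4), limma adjusted p = 0.601). Sdhd was below 0 on arrays 1 and 2 and above 0 on arrays 3 and 4. The iron-sulfur subunit Sdhb had 0.18, 0.057, -0.072 and -0.27 and the other anchor Sdhc had 0.048, -0.026, -0.033 and 0.0041, for fitted ratios of -0.028 and -0.0017, both of which changed sign when the probes of the gene were averaged.

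Complex III, the cytochrome bc1 complex, had a median ratio of -0.029 over 7 tested subunits. Uqcrq, a small accessory subunit close to cytochrome b, had the lowest fitted ratio of all members, at -0.18 ± 0.056 (SE, n = 4; limma adjusted p = 0.177). Its ratios were 0.074 and 0.15 on arrays 1 and 2 and -0.38 and -0.58 on arrays 3 and 4, so the lower values came from arrays 3 and 4. Its levels in the 4 WT livers lay between 16.01 and 16.09 log2 units, while the IlrunKO livers ran from 15.50 to 16.22. A second, dimmer Uqcrq probe was below 0 on all 4 arrays, at -0.12, -0.23, -0.32 and -0.51, with a fitted ratio of -0.29 and limma adjusted p = 0.0844 over probes.

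The catalytic Rieske iron-sulfur subunit Uqcrfs1 had ratios of 0.12, -0.065, -0.10 and -0.15 on arrays 1 to 4, and Uqcrb, which binds near the quinone site, had 0.11, 0.040, 0.083 and -0.032. The core subunit Uqcrc1 had 0.39, 0.12, -0.096 and -0.21. Their fitted ratios were -0.049, 0.051 and 0.049, and each 95% interval included 0. Uqcrc2, cytochrome c1 (Cyc1) and Uqcrh had fitted ratios of -0.029, -0.057 and 0.019.

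Complex IV, cytochrome c oxidase, had 8 of 11 tested subunits above 0 and a median of 0.018. Cox6b1, a subunit on the intermembrane-space side near the cytochrome c site, had ratios of 0.12, 0.044, 0.40 and 0.20 on arrays 1 to 4 and a fitted ratio of 0.19 ± 0.056 (SE, n = 4; limma adjusted p = 0.163). Its 4 IlrunKO levels, 12.41 to 12.53 log2 units, lay above its 4 WT levels, 12.11 to 12.41, by a gap smaller than the last printed digit. Cox7b had 0.38, 0.18, -0.056 and 0.013, and the small accessory subunit Cox5b had 0.068, 0.087, 0.14 and 0.083. Cox5a had 0.034, -0.26, -0.085 and -0.11, the lowest fitted ratio of the complex at -0.11. The other 7, Cox4i1, Cox6a1, Cox6c, Cox7a2, Cox7c, Cox8a and Ndufa4, a protein first assigned to complex I, had fitted ratios between -0.045 and 0.071.

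Complex V, the ATP synthase, had 9 of 13 tested subunits above 0 and a median of 0.023. Atp5g3, one of the genes for the c subunit of the rotor ring, had ratios of 0.66, 0.44, -0.081 and 0.0067 on arrays 1 to 4 (fitted 0.26 ± 0.059 (SE, n = 4), limma adjusted p = 0.113). Its difference was on arrays 1 and 2, with both other arrays near 0. Atp5a1, the alpha subunit of the catalytic head, was above 0 on all 4 arrays, at 0.21, 0.23, 0.36 and 0.076 (fitted 0.22 ± 0.064 (SE, n = 4), limma adjusted p = 0.164). Atp5e, the epsilon subunit of the central stalk, had -0.31, -0.46, 0.12 and -0.037 (fitted -0.17 ± 0.057 (SE, n = 4), limma adjusted p = 0.196).

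The catalytic beta subunit Atp5b had 0.44, 0.36, -0.18 and -0.29 on arrays 1 to 4, for a fitted ratio of 0.081. The other 9 tested complex V subunits, Atp5c1, Atp5d, Atp5f1, Atp5h, Atp5j, Atp5j2, Atp5k, Atp5l and Atp5o, had fitted ratios between -0.084 and 0.069. Atp5g1, another gene for the c subunit, was not analysed here. Atp5g2, a c-subunit gene outside the member list, had a fitted ratio of -0.0023 (limma adjusted p = 0.987).

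**Figure D2:**
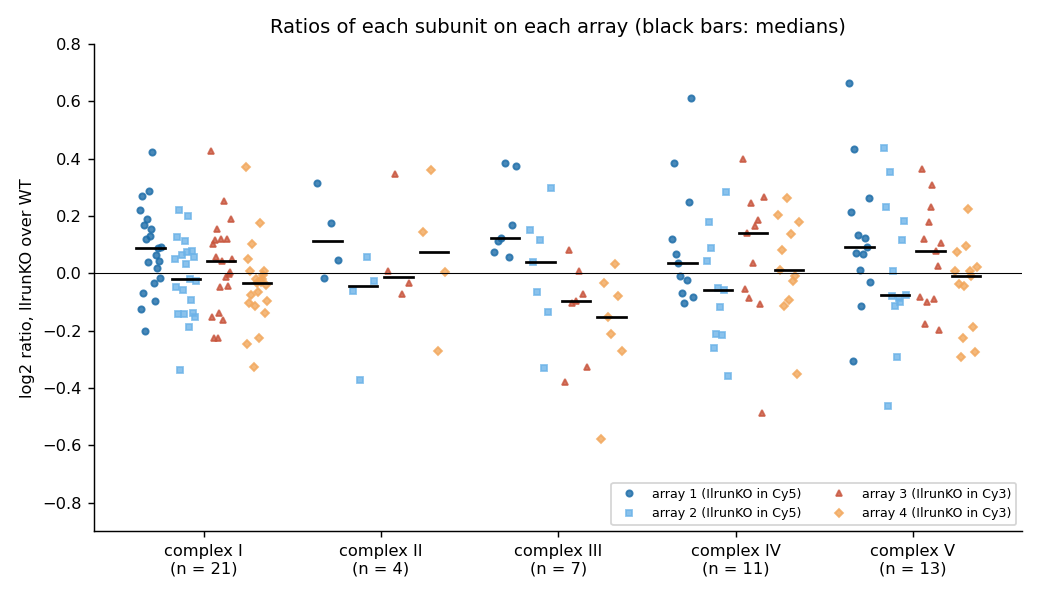
Log2 ratio of IlrunKO over WT (vertical axis) of each tested subunit on each of the 4 arrays, grouped by complex, with black bars for the median on that array. The member medians are 0.089, -0.038, 0.017 and -0.028 on arrays 1 to 4, and in complex III arrays 1 and 2 sit above arrays 3 and 4.

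The levels of single livers overlapped between genotypes for most members. Only Ndufa1, Ndufa2, Ndufv2 and Cox6b1, 4 of 56 members, had 4 IlrunKO levels that all lay on one side of the 4 WT levels, while 9.03% of all genes did. The Ndufa1 level was 14.60 to 14.76 log2 units in IlrunKO and 14.79 to 14.90 in WT, and Ndufa2 was 14.40 to 14.52 against 14.53 to 14.70. Ndufv2 was 13.58 to 13.70 against 13.45 to 13.58, a gap smaller than the last printed digit. Ndufb3 overlapped, because the WT liver of array 2, at 13.88, was above the IlrunKO liver of array 1, at 13.75.

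**Figure D3:**
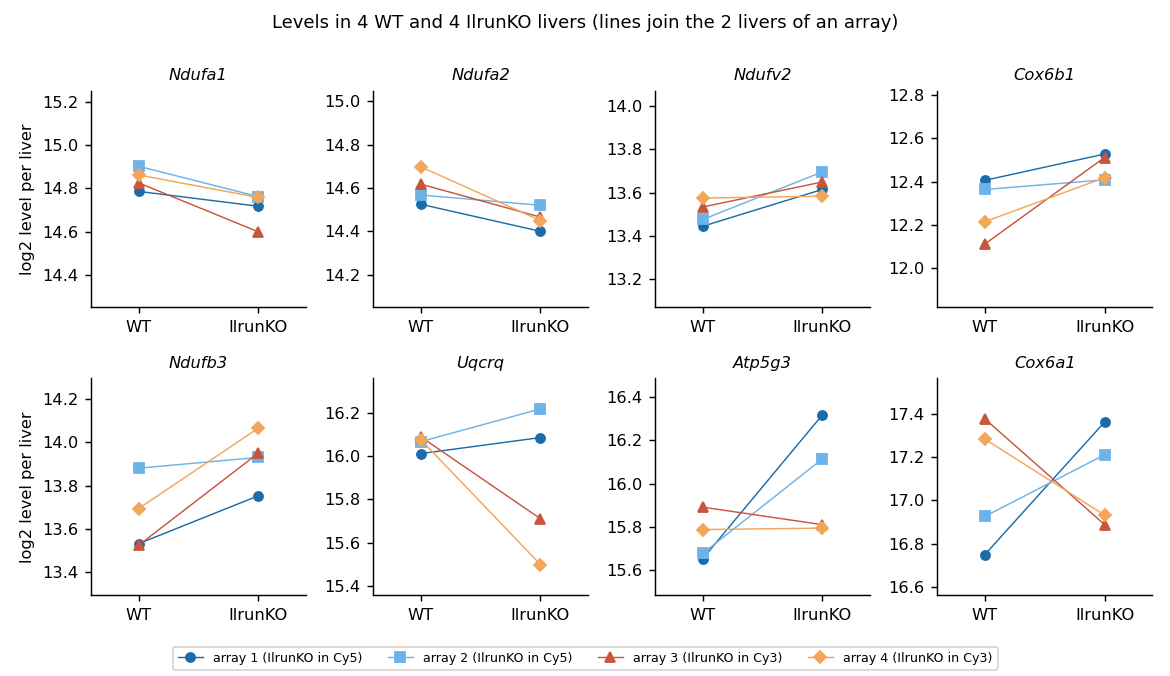
Log2 level (vertical axis, after normalization of the single channels) of 8 subunits in 4 WT and 4 IlrunKO livers, with a line joining the livers of each array. In the upper row the genotypes do not overlap, while in Cox6a1 the lines of arrays 1 and 2 rise and those of arrays 3 and 4 fall.

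Agreement in sign was counted over all 4 arrays and by dye orientation. The sign was the same on all 4 arrays for 10 members, 7 above 0 and 3 below, or 10 of 56 where 23.2% of all genes agreed. For 17 members both arrays of one orientation were above 0 and both of the other below, where 23% of all genes were; 10 were above 0 on arrays 1 and 2, and 7 were above 0 on arrays 3 and 4. The orientation term of limma's fit called 0 members and 0% of all genes at an adjusted p under 0.05, while at an unadjusted p under 0.05 it had 17 members and 18.3% of all genes. The array pairs differ in dye orientation and in the livers they hold, and these cannot be told apart.

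Cox6a1, a complex IV subunit whose other isoform belongs to muscle, gave the widest split. Its ratios were 0.61 and 0.28 on arrays 1 and 2 and -0.49 and -0.35 on arrays 3 and 4, so on every array the Cy5 channel was the brighter one, and the fitted ratio was 0.014 ± 0.072 (SE, n = 4). Uqcrh, the hinge protein of complex III, had 0.38, 0.30, -0.33 and -0.27, and a second probe that overlaps the first had 0.34, 0.43, -0.34 and -0.39. Atp5k followed the same order at 0.26, 0.18, -0.20 and -0.27, but its second probe did not, at 0.17, -0.11, 0.091 and -0.025. Splits were counted at the brightest probe of each member. In the printed promoters the ETS match nearest to the start was 16 bases before it for Cox6a1 and 10 bases before it for Uqcrh. Atp5b split the same way without an ETS match there, and Sdhd split the opposite way with one. A link between promoter motifs and the split was not tested.

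Other members split the opposite way. Cox4i1, the largest nuclear-encoded subunit of complex IV, had -0.082, -0.36, 0.26 and 0.18, and Atp5l, the g subunit of the ATP synthase membrane part, had -0.12, -0.29, 0.31 and 0.22. Of the 5 probes for Atp5l, the 4 dimmer ones did not show a split of that size, with ratios between -0.089 and 0.092. Ndufb9, Sdhd, Ndufa4, Cox7c and Atp5h were also below 0 on arrays 1 and 2 and above 0 on arrays 3 and 4.

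Across the 56 members, as a description over genes that share each array's dyes and loess curve, Pearson's r was 0.796 between arrays 1 and 2 and 0.849 between arrays 3 and 4. Between arrays of opposite orientation it ran from -0.416 to -0.273. Over 19563 genes the same values were 0.379 and 0.529 within orientations and 0.107 to 0.351 across them. Hepatocyte markers differed by array pair too: their median ratio was 0.025 and 0.19 on arrays 1 and 2 and -0.45 on both arrays 3 and 4, 10 of 12 had a fitted ratio below 0, and their summed level was 19.86 to 20.43 log2 units in IlrunKO and 20.08 to 20.53 in WT. Of the other resident cells, 10 of 10 stellate cell and fibroblast markers had a fitted ratio below 0 (median -0.33, summed level 14.60 to 15.14 log2 units in IlrunKO and 15.17 to 15.26 in WT), and 9 of 10 Kupffer cell and macrophage markers had one above 0 (median 0.41, 14.78 to 15.44 against 14.40 to 15.01). The median of the Kupffer cell and macrophage markers was -0.15 on array 1 and 0.86, 0.38 and 0.49 on arrays 2 to 4. Endothelial markers were below 0 in 9 of 10. None of these passed limma's test, with 9, 6 and 4 at an unadjusted p under 0.05, where 20.5% of all genes were. Of the hepatocyte markers 0 passed and 7 of 12 had an unadjusted limma p under 0.05, 6 lower and 1 higher. Of 6 lymphocyte markers 1 passed, Nkg7, at -0.76 (limma adjusted p = 0.0301), a call lost with median centring, the mean of probes, scaling between arrays and without array 3 or array 4 (0.184, 0.0685, 0.0509, 0.142 and 0.123). The part of the hepatocyte and other markers in the members' ratios was not tested.

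**Figure D4:**
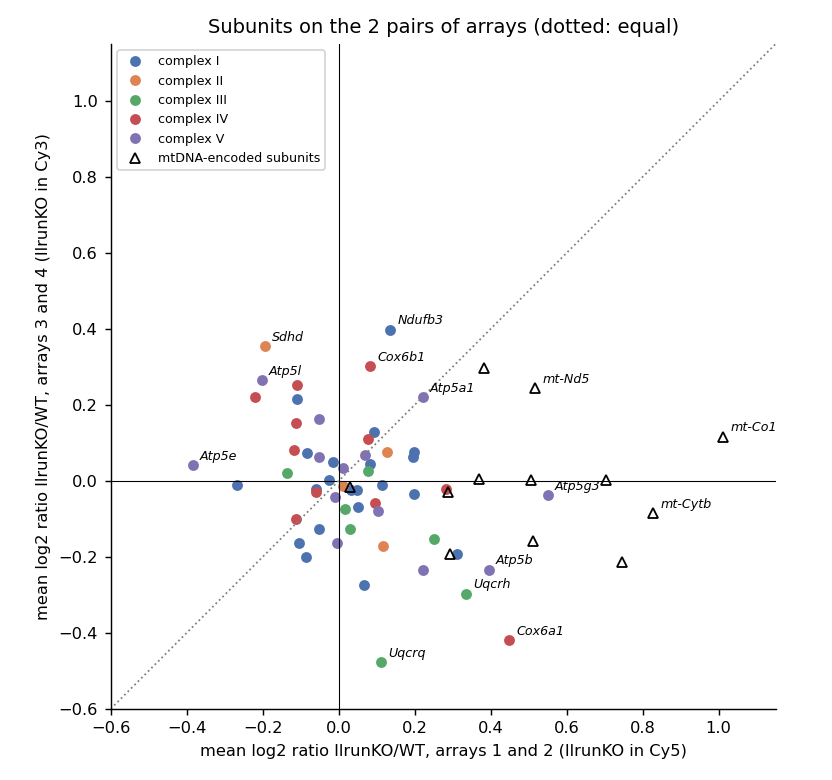
Mean log2 ratio of IlrunKO over WT on arrays 1 and 2 (horizontal axis) against the mean on arrays 3 and 4 (vertical axis), for 56 subunits by complex and for 12 subunits encoded in mitochondrial DNA. Cox6a1, Uqcrh and Atp5b lie to the lower right and Sdhd and Atp5l to the upper left, while Ndufb3, Cox6b1 and Atp5a1 lie above 0 on both axes.

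Of the members, 43 had 1 probe and 15 had more, for 78 probes in all. The brightest Ndufa5 probe and the Ndufa12 probe were not tested. Of the other member probes 0 passed limma's test over 24353 probes, where 1.52% of all probes did. The lowest adjusted p of a member probe was 0.0844. The reported probe was above background in all 8 liver samples for each of the 56 tested members. In 7 members another probe had a fitted ratio of the opposite sign: Ndufb5, Sdhb, Sdhc, Cox7c, Atp5h, Atp5k and Atp5l. The fitted ratios of the reported and the discordant probe were 0.0040 and -0.023 for Ndufb5, 0.071 and -0.029 for Cox7c and 0.0051 and -0.0068 for Atp5h. Atp5k is an example with probes in different places, at chr5:108862266-108862325 and chr5:108862329-108862780 on build mm9, where the ratios were 0.26, 0.18, -0.20 and -0.27 on one and 0.17, -0.11, 0.091 and -0.025 on the other.

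The genes of the wider pathway were read from lists chosen with earlier results of these data known. The subunits encoded in mitochondrial DNA stood higher than the nuclear members on arrays 1 and 2. None of 12 tested had an adjusted p under 0.05 in limma's fit. At an unadjusted p under 0.05 there were 9 (75%, against 20.5% of all genes), and 1 with median centring. The fitted ratios of all 12 were above 0, with a median of 0.26. On arrays 1 to 4 the list median was 0.62, 0.40, -0.054 and 0.00071. Without array 1 the median was 0.18 with 9 of 12 above 0, and with median centring it was 0.086 with 8 above 0. No difference between these subunits and the members was tested.

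Among them mt-Co1, the catalytic core of complex IV, had 1.1, 0.93, 0.36 and -0.13 on arrays 1 to 4 (fitted 0.56 ± 0.095 (SE, n = 4), limma adjusted p = 0.0736). The complex I subunit mt-Nd5 was above 0 on all 4 arrays, at 0.67, 0.36, 0.21 and 0.27 (fitted 0.38 ± 0.068 (SE, n = 4), limma adjusted p = 0.0782). Both passed only when the channels were fitted separately with no block for the array, at limma adjusted p of 0.047 and 0.0455, and over all alternatives the adjusted p ran from 0.047 to 0.293 and from 0.0455 to 0.611. Cytochrome b, mt-Cytb, had 1.04, 0.62, -0.17 and -0.0021. The subunit mt-Nd6 was nearest to 0, at 0.0071 ± 0.062 (SE, n = 4). The probe that the array names ATP8 had a fitted ratio of 0.27. The array's annotation describes this probe as ATP synthase subunit a, so the gene it reads is uncertain. Under its own name, mt-Atp6 was not analysed here.

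Of 19 other nuclear subunits outside the member list, 0 passed limma's test. An unadjusted p under 0.05 was found for 3, all higher, or 15.8% against 20.5% of all genes. Ndufa7, an accessory complex I subunit, had a fitted ratio of 0.16 (limma adjusted p = 0.179), and Atpif1, which inhibits ATP hydrolysis by complex V, had 0.19 (limma adjusted p = 0.23). None of 6 tested isoforms of other tissues passed. With 1 higher and 1 lower, 33.3% had an unadjusted p under 0.05, against 20.5% of all genes. Cox8b, the heart, muscle and brown fat isoform of a complex IV subunit, had 0.30, 0.27, 0.20 and 0.25 (fitted 0.26 ± 0.045 (SE, n = 4), limma adjusted p = 0.0769). Its probe was above background in all 4 IlrunKO livers but in 1 of 4 WT livers, so the size of the ratio rests on how background was handled, and it ran from 0.24 to 1.55 over the alternatives, with 0.77 at an offset of 0. It passed with an offset of 0, with a trended and robust variance and with the channels separate, at limma adjusted p of 0.0277, 0.0258 and 0.0393, and over all alternatives its adjusted p ran from 0.0258 to 0.353. Ndufa4l2, an isoform induced by low oxygen, had -0.23 (limma adjusted p = 0.202).

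Beside Cox8b, itself on the list of brown fat markers, Ucp1 and Dio2 were not above background in any sample. Of the 4 tested markers 0 passed limma's test and 3 (75%) had an unadjusted p under 0.05, against 20.5% of all genes. Cidea had a fitted ratio of 0.42, Elovl3, a fatty acid elongase, -1.24 and Cox7a1 -0.065 (limma adjusted p = 0.101, 0.116 and 0.804). The summed level of the 4, Cox8b included, was 11.53 to 12.43 log2 units in IlrunKO and 12.82 to 13.37 in WT. This sum differed by -0.40, -1.74, -1.39 and -0.63 on arrays 1 to 4. Elovl3 alone had -0.49, -1.98, -1.72 and -0.76, so the sum mostly followed it. Cox8b and Cidea were above 0 on all 4 arrays, and Cox7a1 lay on both sides of 0. Of 7 tested white fat markers 2 passed limma's test, Adrb3 and Cfd, 6 had a fitted ratio above 0, and their summed level was 12.88 to 13.90 log2 units in IlrunKO against 11.74 to 12.21 in WT. With median centring and without array 3 or array 4, neither Adrb3 (limma adjusted p = 0.217, 0.111 and 0.118) nor Cfd (0.184, 0.157 and 0.123) passed. The Cfd call was also lost with processed signals, no filter, the mean of probes, a trended and robust variance, scaling between arrays and without array 1, at limma adjusted p of 0.0916, 0.0508, 0.0514, 0.0688, 0.0908 and 0.0506. Adipoq, Lep and Plin1 were not above background in any sample. The part of these markers in the Cox8b ratio was not tested.

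Of 18 tested genes for ubiquinone synthesis, cytochrome c and other electron carriers, 0 passed limma's test. There were 5 higher and 2 lower at an unadjusted p under 0.05, or 38.9% against 20.5% of all genes. Coq7, the hydroxylase of ubiquinone synthesis, had 0.38, 0.38, 0.28 and 0.21 (limma adjusted p = 0.0583), and it passed with no filter on dim probes, at an adjusted p of 0.0488, with a range over alternatives of 0.0488 to 0.579. Coq10a, a ubiquinone-binding protein needed for respiration, had -0.39, -0.72, -0.41 and -0.24 (limma adjusted p = 0.0738), and it passed without array 1 and with separate channels, at adjusted p of 0.0482 and 0.0467, with a range of 0.0467 to 0.354.

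Assembly factors gave 0 of 14 called for complex I and 0 of 27 for complexes II to V in limma's fit. At an unadjusted p under 0.05 there were 2 and 6, or 14.3% and 22.2% against 20.5% of all genes. Foxred1, a complex I assembly factor, had a fitted ratio of 0.24 (limma adjusted p = 0.1) and Ndufaf2, a complex I chaperone, had -0.13 (limma adjusted p = 0.199). Coa6, for copper delivery to complex IV, had 0.40 (limma adjusted p = 0.133), and Bcs1l, which inserts the Rieske protein into complex III, had 0.19 (limma adjusted p = 0.143).

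The regulators of mitochondrial gene expression gave 0 of 18 called by limma, with 4 higher and 1 lower at an unadjusted p under 0.05. Those below that p made up 27.8% of the list, against 20.5% of all genes. Polg2, the accessory subunit of the mitochondrial DNA polymerase, had 0.88, 0.60, 0.24 and -0.012 on arrays 1 to 4 (fitted 0.43 ± 0.075 (SE, n = 4), limma adjusted p = 0.0767), and it passed with separate channels, at an adjusted p of 0.0415, with a range over alternatives of 0.0415 to 0.392. Tefm, the mitochondrial transcription elongation factor, had a fitted ratio of 0.16 (limma adjusted p = 0.155). Of the factors that bind the promoter motifs, fitted ratios were 0.0034 for Nrf1, 0.084 for Gabpa and -0.022 for Yy1. The estrogen-related receptor Esrra had 0.14 and Esrrg had 0.061 (limma adjusted p = 0.24 and 0.535). Of the coactivators, Ppargc1a had -0.0034 and Ppargc1b had 0.27 (limma adjusted p = 0.99 and 0.235).

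The citric acid cycle, which feeds NADH and succinate to complexes I and II, held the only call among the pathway lists. At an unadjusted limma p under 0.05, 6 of its 17 tested genes were higher and 1 lower, or 41.2% against 20.5% of all genes. Of the 17, 1 passed limma's test, higher in IlrunKO. The gene was Idh2, the NADP-linked isocitrate dehydrogenase of mitochondria, which supplies NADPH and is not the NAD-linked enzyme of the cycle. Its ratios were 0.75, 0.47, 0.76 and 0.69 on arrays 1 to 4 (fitted 0.67 ± 0.065 (SE, n = 4), limma adjusted p = 0.0352), higher on each array. The call was lost with median centring, with the scanner's processed signals, with scaling between arrays and without array 3 or array 4, at adjusted p of 0.328, 0.069, 0.0673, 0.167 and 0.133, and over all alternatives the adjusted p ran from 0.00408 to 0.328.

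The mitochondrial and cytosolic ribosomal proteins, large nuclear families of high expression, are the nearest comparison. In limma's fit 0 of 77 mitochondrial and 0 of 75 cytosolic ribosomal proteins had an adjusted p under 0.05. An unadjusted p under 0.05 was reached by 16 and 7, or 20.8% and 9.33% against 20.5% of all genes. The median ratios were 0.011 for the mitochondrial and 0.0045 for the cytosolic family, next to 0.016 for the members. Signs split between the array pairs in 35 of 75 cytosolic and 21 of 77 mitochondrial genes, where 23% of all genes did. Mrpl17 had the lowest adjusted p of the mitochondrial family, at 0.0585 with a fitted ratio of 0.36, and passed with separate channels at 0.0237 (range over alternatives 0.0237 to 0.512), while Mrps18b had a fitted ratio of 0.28 (limma adjusted p = 0.0794). Of the cytosolic family, Rps26 and Rpl22 had fitted ratios of 0.20 and -0.20 (limma adjusted p = 0.119 and 0.127).

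**Figure D5:**
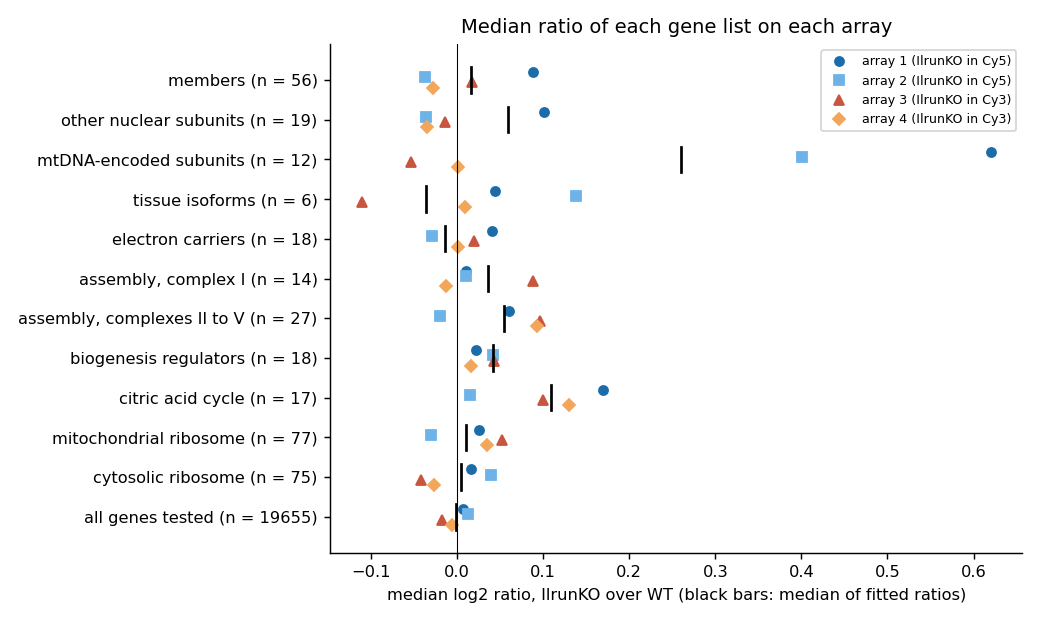
Median log2 ratio of IlrunKO over WT (horizontal axis) of each gene list on each array, with black bars for the median of the fitted ratios and n for the genes tested. The subunits encoded in mitochondrial DNA are at 0.62 and 0.40 on arrays 1 and 2 and near 0 on arrays 3 and 4, and the member medians lie between -0.038 and 0.089.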

How the data were processed

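RNA of 8 livers was measured on 4 two-colour arrays. The deposited intensity values and the log10 ratio of each spot were written, per the file headers, by Feature Extraction 10.10.1.1. The authors' deposited table holds log2 ratios of IlrunKO over WT, which correlated with the scanner's ratios at r of 0.942 to 0.956 over spots above background; so scale and direction match, while its normalization and centring were not stated in any source used, and limma is named, without a version, per the submitters' processing notes. Each deposited column had a median between -0.043 and 0.038.

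Mean signals were background-corrected (normexp, offset 50) and loess-normalized within arrays with limma 3.58.1 in R 4.3.3. Control spots had no weight and outlier spots were left out. Spots of a probe were averaged, and the brightest probe stood for a gene. Genes needed 3 of 4 samples of a genotype well above background and a ratio on at least 3 arrays. The fit (lmFit, eBayes) had a genotype and a dye orientation term, with Benjamini-Hochberg adjustment over all genes and a threshold of 0.05, two-sided. The same fit was run on simulated data, in which the changes were larger than any member's fitted ratio. With 4 arrays the number of arrays limits the precision. Levels of single livers came from the same values after Aquantile normalization. The 2 livers of an array are paired by the hybridisation. Nothing says whether livers were pooled, so p-values refer to these samples only. They measure the spread between arrays of the same dye orientation, moderated over genes. The orientation term takes out the difference between the array pairs, which includes differences between their livers.

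Of 39429 probes, 26055 were named by RefSeq accession, 4125 by symbol and 9249 by the file's own name. Named with values were members past the threshold, the 4 smallest p of each complex, the highest and lowest ratio of each complex, members with discordant probes, and of each pathway list the genes past the threshold or the 2 smallest p; other genes given with values were chosen after their values were seen. The members and lists were chosen with earlier results of these data known. Alternatives were other background corrections, normalizations, filters, probe rules, variance models, and leaving out each array.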

Additional observations from a re-analysis of the deposited data

How the results depend on the processing

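Members called stayed at 0 in each direction under 17 alternative settings and with outlier spots kept, an alternative chosen after seeing the data. The count of members at an unadjusted p under 0.05, 10 in the reported fit, was 3 without the dye term, 6 without background correction, 4 with an offset of 0, 4 with median centring, 3 with Agilent's processed signals, 6 with the authors' deposited table, 6 with a trended and robust variance, and 4 to 6 without each array; it was 13 with no filter and 11 when probes of a gene were averaged. Genes called, 270 in the reported fit, numbered 442 without background correction, 1 with median centring, 61 with processed signals, 450 with the deposited table, 412 with a trended and robust variance, 28 with scaling between arrays and 1 to 464 without each array. With separate channels and no replicate block for the livers of an array, 596 genes and 0 members were called and 6 members had an unadjusted p under 0.05. The share of called genes that were higher was 0% with median centring and 0% to 64.2% without each array.

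Median centring gave 4 members above 0, a member median of -0.14 and medians of -0.14, -0.11, -0.19, -0.15 and -0.13 for complexes I to V. It reversed Ndufs7 (-0.027), Sdha (-0.041), Sdhd (-0.071), Uqcrb (-0.11), Uqcrc1 (-0.092), Cox7b (-0.032), Cox5b (-0.061), Atp5b (-0.094) and Ndufa7 (-0.0067). The mean of a gene's probes reversed Sdhb (0.0025), Sdhc (0.0040) and Rpl22 (0.077). Without each array, the member median ran from -0.016 to 0.051, members above 0 from 23 to 42, and the medians of complexes I to V from -0.0091 to 0.052, -0.014 to 0.093, -0.096 to 0.040, -0.041 to 0.089 and -0.0063 to 0.075. Named ratios that changed sign without an array ran from -0.0086 to 0.17 for Sdhd, -0.078 to 0.022 for Sdhb, -0.020 to 0.017 for Sdhc and -0.019 to 0.12 for Uqcrc1. The cause of these shifts was not tested. The small number of arrays limits what could be called. Ndufb3, at 0.27, did not pass over all genes, and why was not tested. Over the alternatives its ratio ran from 0.12 to 0.31 and its limma adjusted p from 0.0828 to 0.732.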
